A study of Mus musculus with 6 samples.

Results

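Interferon-stimulated genes were followed in the hearts of mouse embryos at E18.5, late in gestation, by sequencing of poly(A) RNA. The group holds 34 genes chosen by symbol for known roles as sensors, signal genes and effectors of the interferon response. The choice was made with earlier results of these data known. All 34 were among the 24421 genes of the deposited expression table, and 31 of them were among the 12121 genes with enough expression to be tested (1 FPKM or more in at least 3 libraries). FPKM is the number of reads per gene, scaled to the gene's length and to the depth of the library. The hearts came from Gas2l3 -/- embryos (3 libraries, replicates 1 to 3) and wildtype embryos (3 libraries, replicates 1 to 3), both of strain C57/Bl6. Gas2l3 encodes a linker of actin filaments to microtubules, and the study asked what its deletion does to the developing heart. Every cell of a Gas2l3 -/- embryo carries the deletion, per its label, and whole hearts with all their cell types were used. Nothing says whether libraries of a group came from separate litters, so p-values cover only the spread among the 6 libraries, which may be technical.

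Interferons are secreted proteins, and those of type I are released when a cell senses foreign or misplaced nucleic acid. Type I interferons bind a receptor pair that activates the kinases JAK1 and TYK2, which in turn switch on a complex with STAT2 and IRF9 that binds the interferon-stimulated response element (ISRE) in promoters. Interferon gamma acts through a receptor of its own and the gamma-activated site (GAS). The genes switched on in this way block viral entry, translation and replication, and many also sharpen further sensing. Some are expressed at a low level in heart cells and resident macrophages with no infection.

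The promoters show what members share in sequence. RefSeq promoter windows (GRCm38.p6, 250 bases before to 50 bases after the gene start) were held for 25 of the 34 members. The letters GAAANNGAA, the core of the ISRE, were found on either strand in 15 of these 25 genes (60%), against 9.76% of all 27025 genes with a window. The letters TTCNNNGAA of the GAS were found in 6 of 25 (24%), against 9.55% of all genes with a window. Only Oas1a, Bst2 and Igtp among the 25 held both. Stretches of 8 members are printed 5′ to 3′ on the strand of the gene, with each match in capitals. An ISRE core facing the other way appears as its reverse complement. These 8 hold the motifs that recur in the group: ISRE cores in rows before antiviral genes, both motifs before Bst2 and Igtp, and a GAS before the transcription factor gene Irf1.
Ifit3 (chr19:34583354-34583455, plus strand): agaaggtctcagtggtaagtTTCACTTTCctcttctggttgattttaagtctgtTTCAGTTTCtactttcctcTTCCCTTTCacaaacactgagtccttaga
Ifit1 (chr19:34640760-34640833, plus strand): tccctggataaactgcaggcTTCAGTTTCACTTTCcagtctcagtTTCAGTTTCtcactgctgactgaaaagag
Gbp3 (chr3:142559980-142560034, plus strand): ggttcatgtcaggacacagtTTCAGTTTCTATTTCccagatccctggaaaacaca
Isg15 (chr4:156200856-156200916, minus strand): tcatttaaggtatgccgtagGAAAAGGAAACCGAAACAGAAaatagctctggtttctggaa
Rsad2 (chr12:26456543-26456591, minus strand): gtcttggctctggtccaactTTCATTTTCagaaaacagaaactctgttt
Bst2 (chr8:71537568-71537628, minus strand): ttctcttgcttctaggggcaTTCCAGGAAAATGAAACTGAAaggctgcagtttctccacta
Igtp (chr11:58199491-58199550, plus strand): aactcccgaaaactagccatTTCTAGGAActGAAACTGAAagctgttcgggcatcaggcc
Irf1 (chr11:53769904-53769952, plus strand): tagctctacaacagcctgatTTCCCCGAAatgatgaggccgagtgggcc
Ifit3, Ifit1 and Isg15 each held 3 ISRE cores before the start used for the window, Gbp3 held 2, and Rsad2 and Igtp held 1 each. For Ifit3 and Gbp3 that start lies inside the gene span given below. The whole Ifit3 stretch and the end of the Gbp3 stretch are thus within those spans. In Ifit1, Gbp3, Isg15 and Bst2 neighbouring cores overlap, and in Bst2 the GAS also overlaps the first of 2 cores.

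The 6 libraries were not alike before any gene was compared. Whole reads recovered from the deposited values ranged from 5514800 to 6483168 in Gas2l3 -/- libraries and from 3414257 to 7732674 in wildtype libraries. Wildtype replicate 3 stood apart, with a mean correlation of 0.899 with the other libraries, against 0.935 to 0.957 for the other five, and its deviations from gene means followed GC content (r = 0.70 across 11709 genes). Those of Gas2l3 -/- replicate 2 and wildtype replicate 2 followed gene length inversely (r = -0.41 and -0.31). Gas2l3 -/- replicate 1 and wildtype replicate 1 followed GC content inversely (r = -0.48 and -0.47) and gene length directly (r = 0.34 and 0.35). Gas2l3 itself stood at 4.03, 2.99 and 3.06 FPKM in Gas2l3 -/- replicates 1 to 3, against 10.3, 4.12 and 2.48 FPKM in wildtype replicates 1 to 3. The groups overlapped, and it is not known here which exons the deletion removes, so these values cannot check the genotypes and all directions refer to the libraries as labelled. Markers of cardiomyocytes were abundant in every library, with summed levels of 13559 to 15001 FPKM in Gas2l3 -/- and 11149 to 12529 FPKM in wildtype hearts. The gap between these sums lies in Nppa alone (means of 5703 FPKM in Gas2l3 -/- and 1904 FPKM in wildtype hearts), and the other 6 of 7 markers had lower log2 means in Gas2l3 -/- hearts.

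Most interferon-stimulated genes had a higher mean in Gas2l3 -/- hearts, but no member passed the test, and Gas2l3 -/- replicate 2 was the highest of the 6 libraries for most of them. Of the 31 tested members, 29 had a higher mean log2 level in Gas2l3 -/- hearts (94%), against 49.0% of all 12121 genes. Their median log2 fold change was 0.36, against -0.0089 for all tested genes. With no minimum, 32 of the 34 had a higher mean, against 52.0% of 17720 genes. In whole hearts, more cells of a type and more RNA per cell cannot be told apart. At an adjusted p under 0.05, limma called 0 of the 31 members and 0% of all 12121 genes. At an unadjusted p under 0.05, 2 members, Ifit3 and Gbp3, were higher and 0 lower, where 1.9% of all genes were higher. The groups did not overlap, with all Gas2l3 -/- libraries above all wildtype ones, for 3 tested members (9.68%), Ifit3, Ddx58 and Gbp3, against 5.02% of all genes. The authors' deposited table called 9 genes at an adjusted p under 0.05 (0.0735% of 12243), none of them a member. In that table the lowest adjusted p of a member was 0.592, for Ifit3.

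**Figure D1:**
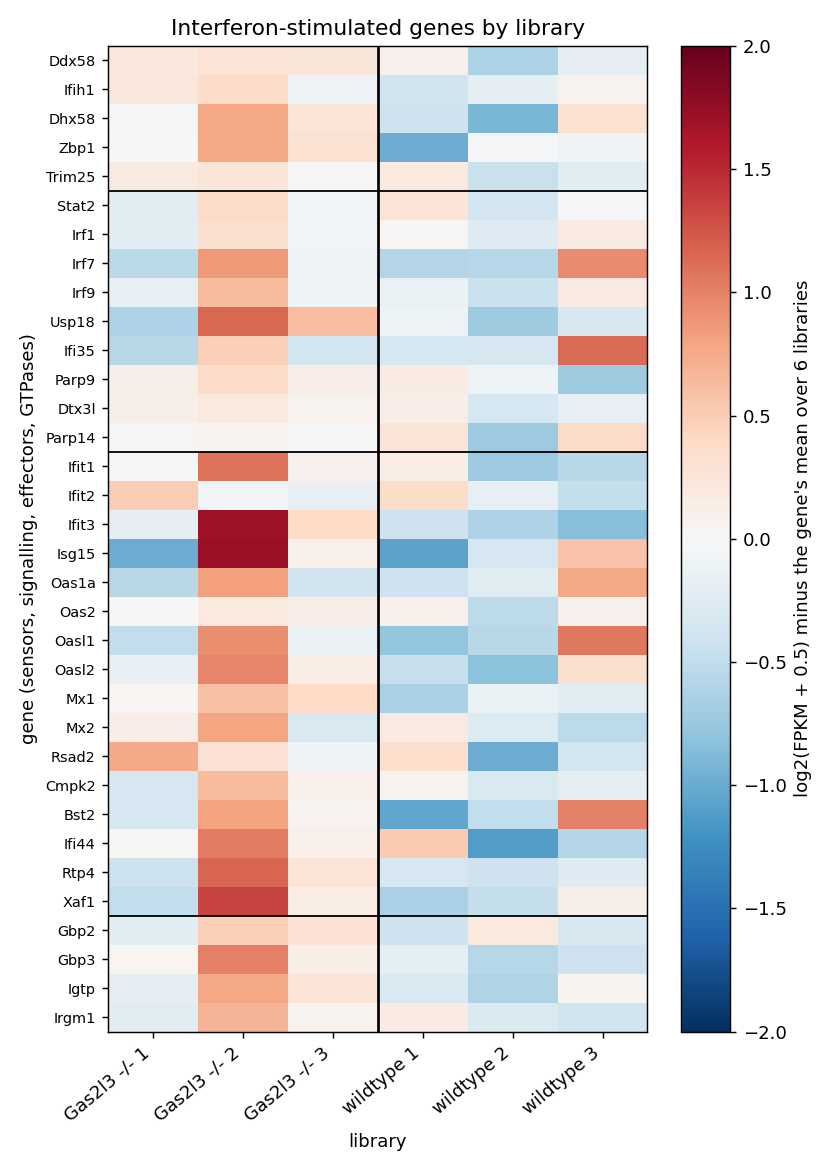
Heat map of the 34 interferon-stimulated genes (vertical, by role) in 3 Gas2l3 -/- and 3 wildtype libraries (horizontal). Colour gives log2(FPKM + 0.5) minus the gene's mean over the 6 libraries. The column of Gas2l3 -/- replicate 2 is the darkest red, wildtype replicate 2 is mostly blue, and Oas2, Mx1 and Zbp1 were under the expression minimum.

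The sensors of viral RNA come first in the pathway. Ddx58 encodes RIG-I, which recognises the ends of foreign RNA, and it was even across the Gas2l3 -/- libraries. It stood at 5.82, 6.09 and 5.95 FPKM in Gas2l3 -/- replicates 1 to 3, against 5.34, 3.01 and 4.32 FPKM in wildtype replicates 1 to 3. The Gas2l3 -/- libraries were close to each other and above all wildtype libraries, of which replicate 2 was the lowest. The log2 fold change was 0.48 (SE 0.26, unadjusted p = 0.102, adjusted p = 0.966), and it was 0.47 without Gas2l3 -/- replicate 2 and 0.28 without wildtype replicate 2. Dhx58 encodes LGP2, a helper of the RNA sensors. It had 1.03, 2.16 and 1.38 FPKM in Gas2l3 -/- libraries, against 0.665, 0.328 and 1.43 FPKM in wildtype libraries, where replicate 3 was just above Gas2l3 -/- replicate 3 (log2 fold change 0.68, SE 0.39; 0.39 without wildtype replicate 2). Ifih1, which encodes the long double-stranded RNA sensor MDA5, averaged 1.26 ± 0.29 FPKM in Gas2l3 -/- and 0.888 ± 0.23 FPKM in wildtype hearts (SD, n = 3 each), with overlapping groups. Trim25, which encodes a ubiquitin ligase that activates RIG-I, averaged 11.0 ± 0.90 FPKM in Gas2l3 -/- and 8.95 ± 2.1 FPKM in wildtype hearts, also with overlap. Zbp1, which encodes a sensor of Z-form nucleic acid, was under the minimum, with 0.501, 1.20 and 0.737 FPKM in Gas2l3 -/- and 0, 0.487 and 0.456 FPKM in wildtype libraries.

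Among the signal genes, the transcription factors of the response had small fold changes. Stat2 and Irf9 encode partners in the complex that binds the ISRE, and Irf7 and Irf1 encode factors that act on interferon and its target genes. Irf9 had 13.6, 23.8 and 14.5 FPKM in Gas2l3 -/- replicates 1 to 3, against 13.9, 11.0 and 17.2 FPKM in wildtype replicates 1 to 3. Apart from Gas2l3 -/- replicate 2, its Gas2l3 -/- values lay inside the wildtype range, and the log2 fold change of 0.27 (SE 0.30) was 0.024 without that library. Irf7 stood at 5.92, 16.4 and 8.27 FPKM in Gas2l3 -/- libraries, against 5.75, 5.81 and 17.5 FPKM in wildtype libraries. It was high in 1 library of each genotype, and its log2 fold change of 0.14 (SE 0.50) became -0.25 without Gas2l3 -/- replicate 2. Stat2 averaged 6.69 ± 1.6 FPKM in Gas2l3 -/- and 6.29 ± 1.5 FPKM in wildtype hearts, and Irf1 averaged 4.26 ± 0.94 and 4.10 ± 0.69 FPKM in Gas2l3 -/- and wildtype hearts. Both changed sign when Gas2l3 -/- replicate 2 was left out, to -0.089 for Stat2 and -0.11 for Irf1.

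Feedback and co-factor genes of the signal varied more. Usp18, which encodes the protease that removes ISG15 from proteins and restrains the type I receptor, had 2.19, 8.62 and 5.82 FPKM in Gas2l3 -/- libraries, against 3.32, 2.01 and 2.79 FPKM in wildtype libraries. Of the Gas2l3 -/- libraries, replicates 2 and 3 lay above all wildtype ones, while replicate 1 lay below 2 of them (log2 fold change 0.77, SE 0.44, unadjusted p = 0.117; 0.38 without Gas2l3 -/- replicate 2). Ifi35, which encodes an interferon-induced leucine zipper protein, ran the other way, with 16.1, 33.4 and 18.1 FPKM in Gas2l3 -/- and 18.46, 18.8 and 52.6 FPKM in wildtype libraries. Wildtype replicate 3 held its highest value, and the log2 fold change of -0.30 (SE 0.46) was 0.19 at the highest with 1 library left out. Parp9 and Dtx3l encode partners in 1 ubiquitin ligase complex and overlap each other on chromosome 16, so reads cannot be assigned to them with certainty. Parp9 had 5.94, 7.19 and 5.97 FPKM in Gas2l3 -/- and 6.13, 5.09 and 3.13 FPKM in wildtype libraries (log2 fold change 0.42, SE 0.29; 0.17 without wildtype replicate 3). Dtx3l ranged from 3.73 to 4.11 FPKM in Gas2l3 -/- and from 2.66 to 3.95 FPKM in wildtype hearts. Parp14, an ADP-ribosyltransferase gene next to them, averaged 2.09 ± 0.057 FPKM in Gas2l3 -/- and 2.12 ± 0.95 FPKM in wildtype hearts. The 3 Gas2l3 -/- libraries were nearly equal for Parp14, and wildtype replicates 2 and 3 held the extremes.

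**Figure D2:**
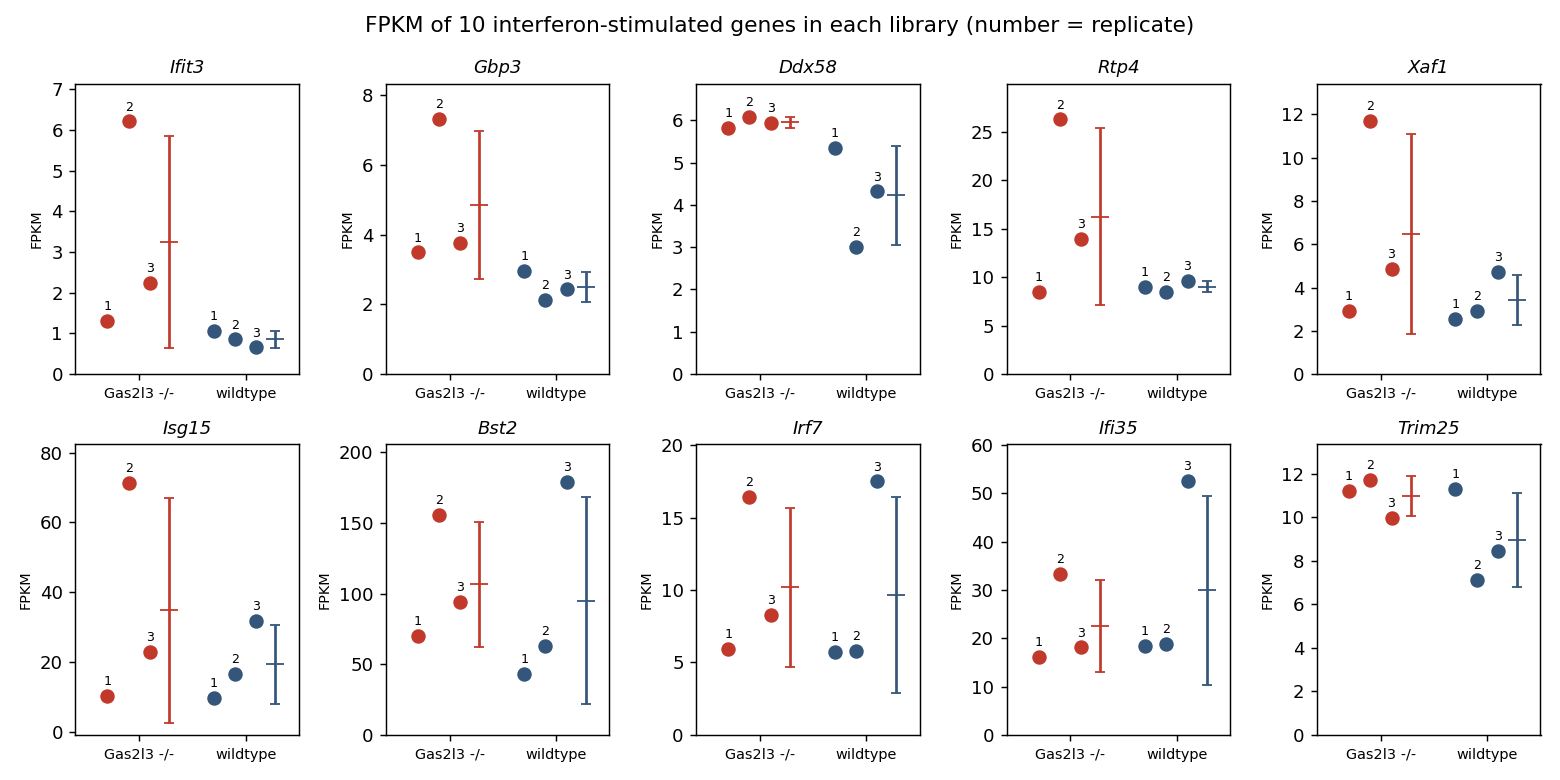
FPKM (vertical, linear from 0) of 10 members in each Gas2l3 -/- and wildtype library, with points numbered by replicate and bars for mean ± SD (n = 3 each). Gas2l3 -/- replicate 2 is the highest point for Ifit3, Gbp3, Ddx58, Rtp4, Xaf1, Isg15 and Trim25, and wildtype replicate 3 is the highest for Bst2, Irf7 and Ifi35.

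The antiviral effectors held the largest fold change of the group, that of Ifit3. Ifit3 (chromosome 19, 34583119 to 34588982 in GRCm38), whose protein binds foreign RNA in a complex with IFIT1, had 1.31, 6.21 and 2.24 FPKM in Gas2l3 -/- replicates 1 to 3, against 1.07, 0.853 and 0.655 FPKM in wildtype replicates 1 to 3. All 3 Gas2l3 -/- libraries lay above all 3 wildtype ones, and Gas2l3 -/- replicate 2 lay far above the rest. Its log2 fold change was 1.26 (SE 0.46, unadjusted p = 0.0253, adjusted p = 0.966), and it was 0.73 without that library. Each library held 8 to 67 reads of Ifit3, and the near-identical gene Ifit3b may share them. Ifit1, which encodes the member that binds capped foreign RNA, had 1.29, 3.37 and 1.42 FPKM in Gas2l3 -/- libraries, against 1.51, 0.597 and 0.744 FPKM in wildtype libraries. Wildtype replicate 1 lay above 2 of the Gas2l3 -/- libraries (log2 fold change 0.76, SE 0.40; 0.40 without Gas2l3 -/- replicate 2). Ifit2, from the same family, averaged 5.08 ± 1.4 FPKM in Gas2l3 -/- and 4.47 ± 1.5 FPKM in wildtype hearts.

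Isg15 encodes a ubiquitin-like protein that is attached to other proteins in the interferon response, and it showed how far a single library can carry a mean. It had 10.4, 71.4 and 23.0 FPKM in Gas2l3 -/- replicates 1 to 3, against 9.87, 16.7 and 31.9 FPKM in wildtype replicates 1 to 3. The next library after Gas2l3 -/- replicate 2 was wildtype replicate 3, and the other four ranged from 9.87 to 23.0 FPKM. The log2 fold change of 0.56 (SE 0.67) was -0.16 without Gas2l3 -/- replicate 2.

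The oligoadenylate synthetase family, some of whose members activate RNA decay, divided by library. Oasl2 had 5.37, 12.4 and 6.77 FPKM in Gas2l3 -/- libraries, against 4.24, 3.22 and 7.68 FPKM in wildtype libraries (log2 fold change 0.64, SE 0.39; 0.32 without Gas2l3 -/- replicate 2 and 0.96 without wildtype replicate 3). Its highest value was in Gas2l3 -/- replicate 2 and the second in wildtype replicate 3. Oas1a and Oasl1 were high in the same 2 libraries: Oas1a averaged 1.83 ± 1.3 FPKM in Gas2l3 -/- and 1.89 ± 1.2 FPKM in wildtype hearts, and Oasl1 averaged 1.54 ± 1.1 and 1.42 ± 1.4 FPKM in Gas2l3 -/- and wildtype hearts. Oas2 was under the minimum, at 0.600 to 0.768 FPKM in Gas2l3 -/- and 0.272 to 0.690 FPKM in wildtype libraries. Oas1a belongs to a cluster of near-identical genes, so its counts are uncertain.

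Mx1 and Mx2 are genes of a family of dynamin-like GTPases with antiviral members. Mx2 had 1.47, 2.61 and 0.958 FPKM in Gas2l3 -/- libraries, against 1.54, 0.979 and 0.746 FPKM in wildtype libraries, with full overlap apart from Gas2l3 -/- replicate 2 (log2 fold change 0.42, SE 0.37; 0.12 without that library). Mx1 was under the minimum, with 0.312, 0.687 and 0.535 FPKM in Gas2l3 -/- libraries and 0, 0.221 and 0.166 FPKM in wildtype libraries. Its groups did not overlap, on at most 11 reads in a library, and wildtype replicate 1, the shallowest library, held 0 reads.

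Rsad2 and Cmpk2 lie side by side on chromosome 12 and encode viperin, which makes a chain-ending nucleotide, and a mitochondrial nucleotide kinase. Rsad2 had 4.94, 3.43 and 2.56 FPKM in Gas2l3 -/- libraries, against 3.59, 1.11 and 1.99 FPKM in wildtype libraries. It was 1 of only 2 tested members, with Ifit2, to be highest in Gas2l3 -/- replicate 1 (log2 fold change 0.66, SE 0.39; 0.68 without Gas2l3 -/- replicate 2 and 0.34 without wildtype replicate 2). Cmpk2 had 3.53, 7.38 and 4.94 FPKM in Gas2l3 -/- and 4.84, 3.62 and 4.01 FPKM in wildtype libraries, and its log2 fold change of 0.27 (SE 0.30) was 0.017 without Gas2l3 -/- replicate 2.

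Other effectors followed the library pattern. Bst2, which encodes tetherin, a membrane protein that holds budding virus at the cell surface, was the most abundant member. It had 70.1, 155.6 and 93.8 FPKM in Gas2l3 -/- replicates 1 to 3, against 42.9, 63.2 and 179 FPKM in wildtype replicates 1 to 3. The values of Gas2l3 -/- replicate 2 and wildtype replicate 3 stood above the rest, and the log2 fold change of 0.36 (SE 0.54) ran from -0.078 without wildtype replicate 1 to 0.95 without wildtype replicate 3. Rtp4, which encodes a chaperone of G-protein-coupled receptors, had 8.44, 26.3 and 13.96 FPKM in Gas2l3 -/- libraries, against 8.96, 8.51 and 9.58 FPKM in wildtype libraries. The wildtype libraries were close together, Gas2l3 -/- replicate 1 lay just under them, and the log2 fold change of 0.67 (SE 0.38) was 0.26 without Gas2l3 -/- replicate 2. Xaf1, which encodes an antagonist of the apoptosis inhibitor XIAP, had 2.91, 11.7 and 4.84 FPKM in Gas2l3 -/- and 2.56, 2.93 and 4.73 FPKM in wildtype libraries (log2 fold change 0.67, SE 0.46; 0.17 without Gas2l3 -/- replicate 2). Ifi44, an interferon-induced gene, had 1.81, 4.15 and 1.94 FPKM in Gas2l3 -/- and 2.75, 0.542 and 1.015 FPKM in wildtype libraries (log2 fold change 0.78, SE 0.47; 0.46 without Gas2l3 -/- replicate 2). For both genes the 2 groups overlapped.

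The interferon-inducible GTPases attack vacuoles that hold pathogens, and their genes are classic targets of interferon gamma. Gbp3 (chromosome 3, 142560016 to 142573213 in GRCm38), a guanylate-binding protein gene, had 3.49, 7.32 and 3.75 FPKM in Gas2l3 -/- replicates 1 to 3, against 2.96, 2.13 and 2.43 FPKM in wildtype replicates 1 to 3. The groups did not overlap, with or without Gas2l3 -/- replicate 2. Its log2 fold change was 0.77 (SE 0.32, unadjusted p = 0.0401, adjusted p = 0.966), and 0.46 without that library. Igtp, an immunity-related GTPase gene, had 3.21, 6.69 and 4.50 FPKM in Gas2l3 -/- and 2.89, 2.27 and 3.89 FPKM in wildtype libraries (log2 fold change 0.56, SE 0.32; 0.32 without Gas2l3 -/- replicate 2). Only wildtype replicate 3 lay above the lowest Gas2l3 -/- library. Irgm1, whose protein regulates the other immunity-related GTPases, had 8.32, 15.8 and 10.2 FPKM in Gas2l3 -/- and 10.9, 7.84 and 7.21 FPKM in wildtype libraries (log2 fold change 0.36, SE 0.30; 0.11 without Gas2l3 -/- replicate 2). Gbp2 averaged 2.44 ± 0.68 FPKM in Gas2l3 -/- and 1.79 ± 0.54 FPKM in wildtype hearts, with overlap.

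The shift of the whole group was then traced library by library. Gas2l3 -/- replicate 2 was the highest library for 24 of the 31 tested members, against 15.1% of all genes, and wildtype replicate 3 was highest for 5 (16.1%, against 37.5% of all genes). Wildtype replicate 2 was the lowest library for 15 members, against 13.1% of all genes. The median deviation of the members from their own means was -0.18, 0.77 and 0.075 on the log2 scale in Gas2l3 -/- replicates 1 to 3, against -0.13, -0.45 and -0.16 in wildtype replicates 1 to 3. The medians of Gas2l3 -/- replicate 1 and wildtype replicates 1 and 3 were thus close together. Between libraries of the same replicate number, the Gas2l3 -/- library was higher for 15 of 31 members in number 1, 31 of 31 in number 2 and 18 of 31 in number 3. The shares over all genes were 51.2%, 52.9% and 50.4%. The median difference between same-numbered libraries was -0.0094, 1.08 and 0.22 for numbers 1 to 3. With GC and length trends removed it was 0.052, 1.09 and -0.083, and number 3 turned, with 11 of 31 members higher in Gas2l3 -/-. Ddx58, Ifit3, Gbp3, Igtp, Rsad2, Gbp2, Xaf1 and Ifit2 were the 8 members higher in Gas2l3 -/- in all 3 numbers (25.8%, against 16.6% of all genes).

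**Figure D3:**
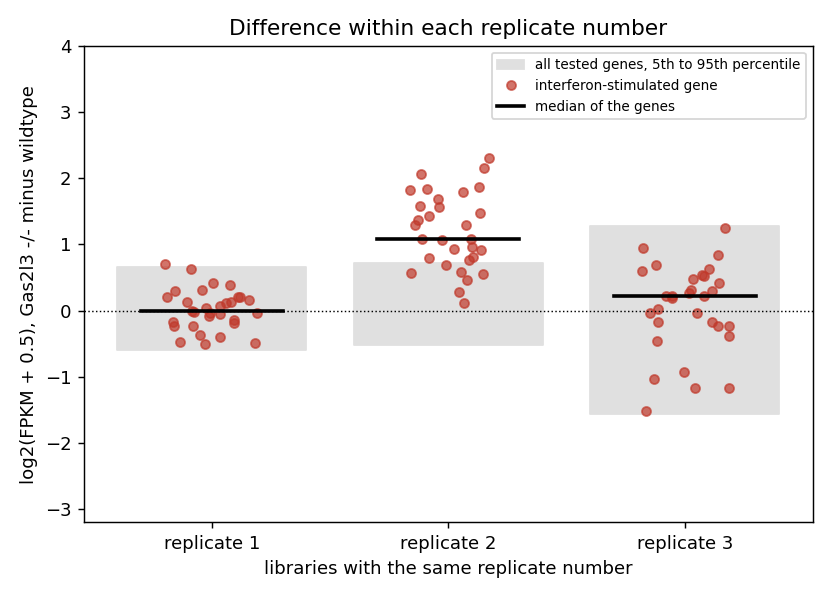
Difference in log2(FPKM + 0.5), Gas2l3 -/- minus wildtype (vertical), between libraries of replicate number 1, 2 and 3 (horizontal), with a point for each of 31 tested members, a black line for their median and grey for the 5th to 95th percentile of all tested genes. All 31 points are above 0 in number 2, where the median is 1.08, and the points lie on both sides of 0 in numbers 1 and 3.

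Leaving out single libraries changed the size of the shift. The members' median log2 fold change was 0.22 without Gas2l3 -/- replicate 2. In that fit 24 of 31 members were higher in Gas2l3 -/- hearts, against 50.9% of all genes. The median was 0.33 without wildtype replicate 2 (24 of 31, against 46.2% of all genes). It was 0.51 without wildtype replicate 3 (30 of 31, against 50.1% of all genes). With Gas2l3 -/- replicate 1, Gas2l3 -/- replicate 3 or wildtype replicate 1 left out, it was 0.50, 0.46 and 0.47. Without both libraries numbered 2, a choice made after seeing the data, it was 0.097. There 20 of 31 members were higher, against 48.7% of all genes. With trends on GC content and gene length removed from each library, the median was 0.35. It was 0.13 with Gas2l3 -/- replicate 2 also left out, also a choice made after seeing the data. In this last fit 19 of 31 members were higher, against 46.3% of 11709 genes. Of the 31 members, 18 lost at least 50% of their log2 fold change or changed sign when 1 library was left out, and 10 of these changed sign. The same shares over all genes were not computed, so these counts do not show whether members depend more on single libraries than other genes. Ifit3, Ddx58 and Gbp3 had groups that did not overlap also without Gas2l3 -/- replicate 2 (9.68% of members, against 7.40% of all genes). With trends removed, this held for Ifit3, Dhx58 and Parp9 (against 6.74% of all genes). Without wildtype replicate 3 it held for 10 members (32.3%, against 10.3% of all genes).

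**Figure D4:**
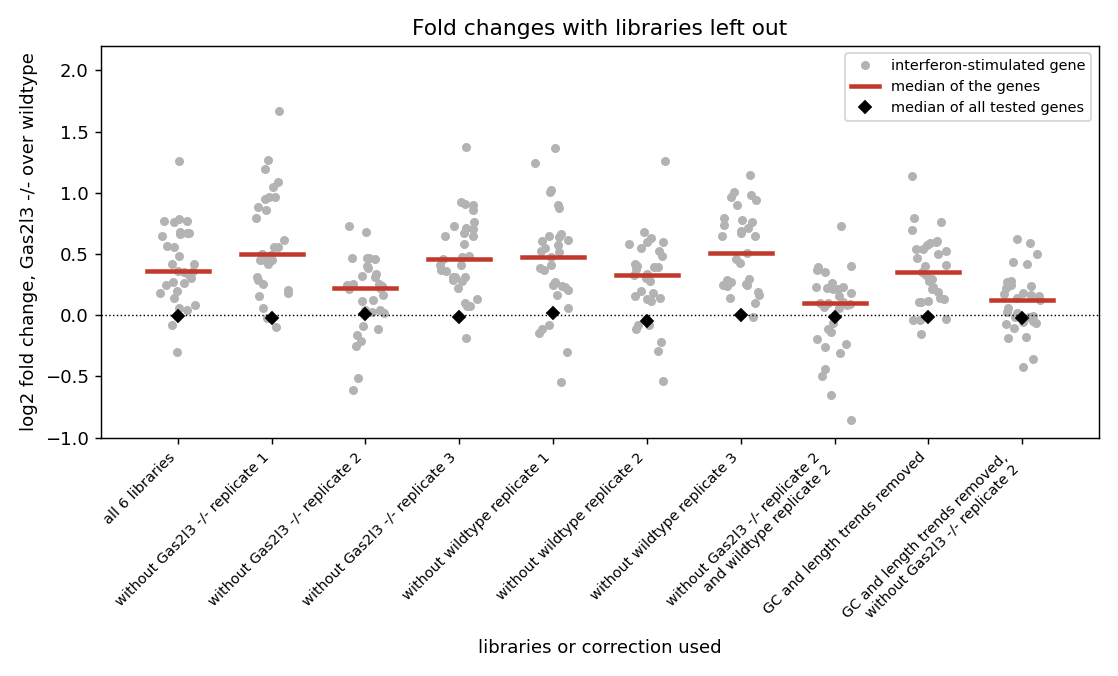
Log2 fold change of Gas2l3 -/- over wildtype (vertical) for each tested member (grey), their median (red) and the median of all tested genes (black diamond), with all 6 libraries and with libraries left out or GC and length trends removed (horizontal). The red line is at 0.36 with all libraries and at 0.22 without Gas2l3 -/- replicate 2, and the diamonds stay near 0.

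The members fell into different patterns over the libraries, grouped after their values were seen and so without a test. In 10 members (Ifit1, Ifit3, Isg15, Oasl2, Mx2, Ifi44, Dhx58, Xaf1, Rtp4 and Gbp3) Gas2l3 -/- replicate 2 was at least 1.5 times any other library. Of the rest, 5 (Irf7, Oas1a, Oasl1, Ifi35 and Bst2) had both Gas2l3 -/- replicate 2 and wildtype replicate 3 at least 1.3 times all others, which also held for Isg15, counted with the first 10. These 5 had GC contents of 52.0% to 56.3%, against 40.4% to 53.9% for the first 10. In Irf1, Stat2, Trim25 and Dtx3l all 6 libraries lay within 2-fold, and the other 12 fit none of these. Across the 31 members, the deviation of wildtype replicate 3 followed GC content (Pearson's r = 0.73, Spearman's rho = 0.67), and that of Gas2l3 -/- replicate 2 followed log length inversely (r = -0.68, rho = -0.73). The points share libraries, and these correlations describe the libraries across genes and carry no p. With both trends removed, Gas2l3 -/- replicate 2 was the highest library for 26 of 31 members, against 19.7% of all genes. Median library deviations were then -0.21, 0.63 and 0.0013 in Gas2l3 -/- replicates 1 to 3, against -0.20, -0.52 and 0.19 in wildtype replicates 1 to 3.

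The promoter motifs were set beside the fold changes. The median log2 fold change was 0.48 for the 15 members with an ISRE core in the window and 0.23 for the 10 without. It was 0.11 for the 6 members with a GAS and 0.36 for the 19 without. Ifit3, Gbp3 and Ddx58, the tested members whose groups did not overlap, all held an ISRE core and no GAS. Ifi35, the most negative member, held a GAS and no ISRE core. The core of Ddx58 and the GAS of Ifi35 lay after the gene start. Mx1 and Zbp1, under the expression minimum, also had groups that did not overlap, and no window was held for either. These are descriptions of windows and not of binding.

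With all 6 libraries, genes on other steps of the pathway shifted less. None of 12 interferon ligand genes could be tested: 10 had 0 reads in all 6 libraries and no library held more than 1 read of the other 2, Ifnb1 and Ifnz. All 11 genes for interferon receptors and their kinases and STAT proteins were tested, with 0 called, 6 with a higher mean in Gas2l3 -/- hearts and a median log2 fold change of 0.064. That median ran from -0.051 without Gas2l3 -/- replicate 1 to 0.18 without wildtype replicate 1, and was 0.0059 and 0.026 without wildtype replicates 2 and 3. Among them, Ifnar1, for a chain of the type I receptor, had 12.3, 11.5 and 12.4 FPKM in Gas2l3 -/- and 11.6, 8.81 and 7.68 FPKM in wildtype libraries. The Gas2l3 -/- libraries were close together, and wildtype replicate 1 lay between their lowest and highest values. The log2 fold change of Ifnar1, 0.37 (SE 0.24), did not pass the test.

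Of 19 genes that sense nucleic acid or induce interferon, 15 were tested and 0 were called, with 11 higher and a median of 0.15. The median ran from 0.066 without Gas2l3 -/- replicate 1 to 0.24 without wildtype replicate 1. Without Gas2l3 -/- replicate 2 it was 0.20, close to the members' 0.22 in that fit. The largest log2 fold change of these genes was that of Tlr4, for the receptor of bacterial lipopolysaccharide. Tlr4 had 6.02, 3.95 and 3.12 FPKM in Gas2l3 -/- and 3.25, 1.33 and 0.894 FPKM in wildtype libraries (log2 fold change 1.15, SE 0.41, adjusted p = 0.966). Unlike most members, Tlr4 was highest in Gas2l3 -/- replicate 1. Ifi204, for a DNA sensor of macrophages, had 1.55, 2.02 and 2.02 FPKM in Gas2l3 -/- and 0.930, 1.15 and 0.930 FPKM in wildtype libraries, with no overlap. Mb21d1, for the DNA sensor cGAS, had a log2 fold change of 0.46 (SE 0.29). Of 17 negative regulators, 17 were tested and 0 were called, with 6 higher and a median of -0.087, or -0.014 without wildtype replicate 3 and -0.19 without wildtype replicate 1. Wildtype replicate 3 was the highest library for 11 of the 17, among them Rnaseh2a, for a subunit of RNase H, with 37.2 FPKM there against 11.8 to 16.3 FPKM in the other five libraries (log2 fold change -0.62, SE 0.38).

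A second list of 56 interferon-induced genes, none of them members, resembled the group in a weaker form. This list, too, was chosen with earlier results of these data known. In it 39 genes were tested and 0 were called, with 28 higher in Gas2l3 -/- hearts and a median log2 fold change of 0.21. The median was 0.11 without wildtype replicate 2, 0.33 without wildtype replicate 1 and 0.39 without wildtype replicate 3. Without Gas2l3 -/- replicate 2 it was 0.18, against 0.22 for the members. Gas2l3 -/- replicate 2 was the highest library for 17 of the 39, and the higher of the libraries numbered 2 for 35 of 39. Slfn2, a Schlafen gene of immune cells, had 4.92, 17.6 and 8.24 FPKM in Gas2l3 -/- and 2.88, 6.54 and 2.07 FPKM in wildtype libraries (log2 fold change 1.27, SE 0.50; 0.81 without Gas2l3 -/- replicate 2). Trim21, for an antibody-binding ubiquitin ligase, had 2.88, 4.39 and 3.42 FPKM in Gas2l3 -/- and 1.72, 2.36 and 0.999 FPKM in wildtype libraries (log2 fold change 0.92, SE 0.32), with no overlap.

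**Figure D5:**
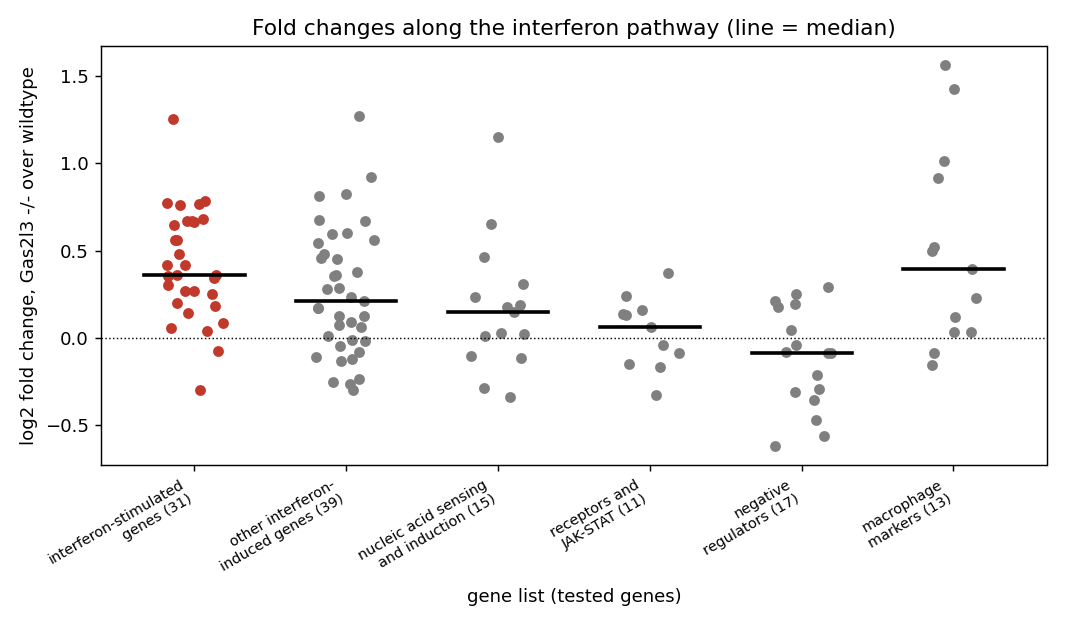
Log2 fold change of Gas2l3 -/- over wildtype (vertical) for the tested genes of 6 lists (horizontal, number tested in brackets), with a point for each gene and a line for the median. The medians are 0.36 for the interferon-stimulated genes, 0.21 for other interferon-induced genes, 0.15 for sensing genes, 0.064 for receptors and JAK-STAT genes, -0.087 for negative regulators and 0.39 for macrophage markers.

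Markers of immune cells were set beside these libraries. Of 15 macrophage markers 13 were tested, and 11 had higher means in Gas2l3 -/- hearts, with a median log2 fold change of 0.39. Without wildtype replicate 1 that median was 0.095, and without Gas2l3 -/- replicate 2 it was 0.22. Their summed level was 125.6, 204.5 and 151.5 FPKM in Gas2l3 -/- replicates 1 to 3, against 74.1, 119.4 and 193.5 FPKM in wildtype replicates 1 to 3. Lyz2, for lysozyme, had 32.1, 72.2 and 35.8 FPKM in Gas2l3 -/- and 17.4, 24.3 and 9.47 FPKM in wildtype libraries (log2 fold change 1.43, SE 0.43, adjusted p = 0.966). Its fold change was among the largest of the list, with those of Aif1 (1.56), Ly86 (1.01) and Fcgr1 (0.92). In 4 of the 13 tested markers all Gas2l3 -/- libraries lay above all wildtype ones, against 5.02% of all genes, and 0 were called. The log2 fold changes of Csf1r and Mrc1 were only 0.036 and 0.032, and those of C1qa and C1qb were -0.16 and -0.085. The neutrophil genes S100a8, S100a9 and Retnlg summed with 2 others to 27.2, 61.9 and 22.2 FPKM in Gas2l3 -/- and 16.0, 38.6 and 8.68 FPKM in wildtype libraries. They were thus highest in Gas2l3 -/- replicate 2, but second highest in wildtype replicate 2, where the interferon-stimulated genes were lowest. T, NK and B cell markers were at or near 0, with 0 reads of Cd3e and Cd3g in all libraries and at most 8 reads of any marker in a library. The part of these cells in the shift of the interferon-stimulated genes was not tested.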

How the data were processed

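Poly(A) RNA of 3 Gas2l3 -/- and 3 wildtype hearts was amplified over 13 PCR cycles in NEBNext Ultra libraries, per the labels' protocols. FastQC, DESeq2 and mm10 are named, per the submitters' processing notes; the aligner, the counter and any use of strand are not given in the sources, so overlapping and near-identical genes are uncertain. The authors deposited FPKM per gene and library and their own table of log2 fold changes, p-values and other statistics of the comparison. Positive log2 fold changes mean higher in Gas2l3 -/-. From the values, FPKM were scaled by size factors, and whole reads were recovered for 100% of 94235 values within 0.01. From the FPKM, log2(FPKM + 0.5) of genes with 1 FPKM or more in at least 3 libraries was fitted with limma 3.58.1 in R 4.3.3 (group only, intensity trend, two-sided, Benjamini-Hochberg over all 12121 genes, called under 0.05). On this scale the fold changes of low genes are understated. The fit was run on simulated data with independent noise in each gene and library, which did not cover the trends of these libraries. Medians, counts and motif shares are descriptions.

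Members and lists were chosen with earlier results of these data known. Values in every library were printed for the 14 tested members with the smallest unadjusted p, up to 6 more by size whose fold change loses 50% or reverses without 1 library, up to 4 genes of each pathway list and up to 3 of each marker list with a median over 0.2; fewer are printed for the lists, and Irf7 was added for its role, after its values were seen. GC content came from GENCODE M21 transcripts and gene positions and promoters from RefSeq, GRCm38.p6. Trends were loess curves of span 0.3. Labels number the replicates with no meaning given. Deviations from group means of same-numbered libraries correlated at 0.47, 0.44 and 0.19. From the data, the numbers were therefore taken as pairs, for the same-number differences and the replicate block only. These deviations still hold the GC and length trends that same-numbered libraries 1 and 2 had in common. The correlations were not computed with trends removed, so they do not show that the hearts were paired. The SEs printed with fold changes come from the group-only fit. With the block some differ, as for Rsad2 (SE 0.28 in place of 0.39), and the block changed no call.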

Additional observations from a re-analysis of the deposited data

How the results depend on the processing

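Under 21 alternatives, 582 of 632 member fold changes kept their direction, 50 reversed and 0 passed the threshold; the lowest adjusted p of a member was 0.373. With the replicate block the members' median was 0.36, 0 genes were called, and the adjusted p of Ifit3 was 0.747. Genes called over all tested genes numbered 2 with library weights and 1 with GC and length trends removed, against 0 otherwise, none of them members. Members with a higher mean numbered 11 of 12 where a mean of 5 FPKM was required, a filter that leaves fewer genes, and 19 with trends removed without Gas2l3 -/- replicate 2. Scaling to a common FPKM total moved the median of all genes to 0.15 and of the members to 0.52. With trends removed, with or without the block, Ifit2 was -0.043 and Parp14 -0.036. With trends removed and without Gas2l3 -/- replicate 2, values were Cmpk2 -0.18, Dtx3l -0.017, Ifih1 -0.072, Ifit2 -0.048, Irf1 -0.062, Irf7 -0.011, Irf9 -0.016, Irgm1 -0.059, Parp14 -0.18 and Stat2 -0.11. Quantile normalization gave Irf1 -0.043 and Parp14 -0.011, and a common total gave Oas1a 0.060. With 1 library or a pair of libraries left out (the pairs, Gas2l3 -/- replicate 2 with wildtype replicate 2 or 3, were chosen after seeing the data), the ranges follow. They were Bst2 -0.11 to 0.95, Cmpk2 -0.067 to 0.50, Ifi35 -0.85 to 0.19, Ifit2 -0.021 to 0.41, Irf1 -0.23 to 0.16, Irf7 -0.50 to 0.65, Irf9 -0.13 to 0.42, Irgm1 -0.00027 to 0.56, Isg15 -0.19 to 1.20, Mx2 -0.036 to 0.67, Oas1a -0.65 to 0.29, Oasl1 -0.44 to 0.77, Parp14 -0.31 to 0.26 and Stat2 -0.26 to 0.24. The members' median ranged from 0.097 to 0.51 and the members with a higher mean from 20 to 30. The cause of these reversals was not tested. Depth limits Ifit3, Oas1a, Oas2, Oasl1, Dhx58, Mx1 and Zbp1, which had 8 or fewer reads in at least 1 library.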
